A study of Oryza sativa Indica Group with 12 samples.

Results

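Of 57258 rice probe sets, 210 were raised in seedlings deprived of potassium and back at the level of potassium-fed seedlings within 6 h of resupply. The rule was a KM mean at least 1 log2 unit above the KP mean, a KR mean less than 0.5 from the KP mean, a KM mean of at least 5, and all 3 KM arrays above every KP and KR array. The members were therefore chosen on the KR, KM and KP arrays, and differences among these groups describe the choice. Calls by limma between these groups are given as counts over all probe sets, gene families and members. For members they restate the rule and are not read as tests. The arrays taken before transfer (0h) had no part in the rule, and members were tested only against them. The KM and KP arrays on the other side of those comparisons did enter the rule, so p-values of members against 0h are not independent of the choice.

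The seedlings were of the indica rice cultivar IR64, grown hydroponically, with RNA from whole seedlings except seeds, on 12 Affymetrix arrays with 3 biological replicates for each group. KR seedlings spent 5 days on medium without potassium and were then given 0.409 mM potassium sulfate (K2SO4) for 6 h. KM seedlings spent 5 days on medium without potassium, KP seedlings 5 days with 0.409 mM K2SO4, and 0h seedlings were taken before transfer, after 5 days of normal growth. A treatment tag of the 0h samples names the deficient medium, against their title and source name, and they were kept as 0h. No source used here gives the clock time of harvest. If KR plants were collected 6 h after KM plants, resupply and time of day cannot be told apart. In whole seedlings, fewer cells of a type and less RNA per cell cannot be told apart.

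Potassium is the main cation of plant cells and sets turgor, membrane voltage and the activity of many enzymes. Plants short of it draw on stores, change root growth and defence chemistry, and signal through calcium, reactive oxygen and hormones.

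Values are log2 intensities, on which the arrays' medians lay at 2.79 to 2.83 in KR, 2.70 to 2.73 in KM, 2.71 to 2.72 in KP and 2.72 to 2.74 in 0h, so that a group mean under 3.5 is near background. Among the members the median of the group means was 6.11 in KR, 7.46 in KM, 6.12 in KP and 5.62 in 0h. The KM mean exceeded the KP mean by a median of 1.27, with quartiles of 1.10 and 1.59 and a largest value of 5.62. At least a 4-fold difference was reached by 26 members and at least 8-fold by 8. In KR 125 members lay above their KP mean and 85 below it. Near background were 17 members in KR, none in KM, 14 in KP and 37 in 0h, and the 14 of KP were near background in KR and 0h as well. The replicate SD had a median over members of 0.21 in KR, 0.16 in KM, 0.23 in KP and 0.20 in 0h.

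All 3 KM arrays stood above all KP and KR arrays for 3422 probe sets in all (5.98%), the 210 members among them by the rule. Of the members 194 also passed limma for KM above KP (adjusted p under 0.05 and at least 2-fold, 0.954% of all probe sets) and 155 for KR below KM (2.06% of all probe sets). These counts restate the rule.

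**Figure D1:**
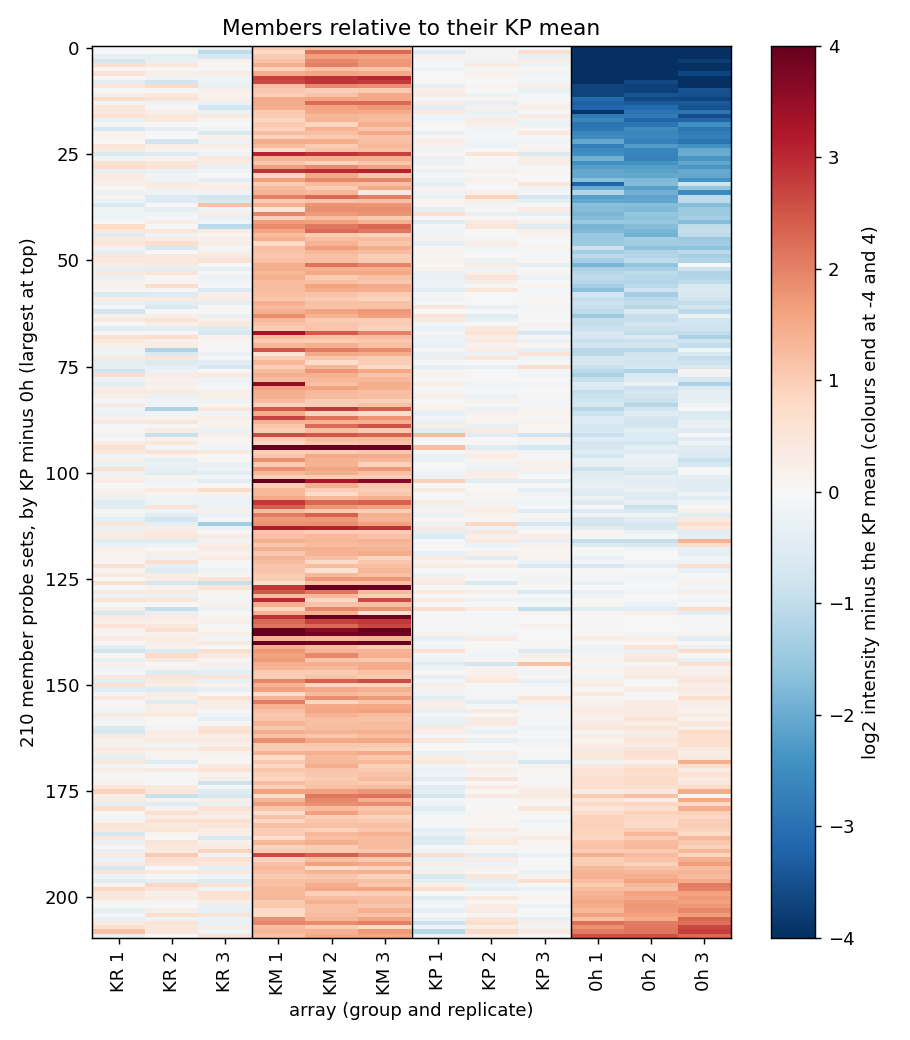
Log2 intensity of the 210 members on each of the 12 arrays, relative to each member's KP mean, with KR, KM, KP and 0h arrays from left to right and members ordered by KP minus 0h. The KM columns are red for every member and the KR columns pale, while the 0h columns run from deep blue, down to 5.19 below KP, to red, up to 2.45 above KP.

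The annotation gave 1 gene for 142 members, covering 138 genes, and none for 68. A gene name or a locus with a putative function was at hand for 82 members. The locus names and functions come from a table that the study drew up from these same arrays.

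The annotated members with the largest KM minus KP are described first, and unannotated probe sets lay among them. The alpha-amylase LOC_Os09g28430, of a family that breaks down starch in germinating seeds, read 3.52, 2.75 and 2.73 on the KR arrays, 8.93, 8.27 and 8.19 on the KM arrays, 4.04, 2.36 and 2.14 on the KP arrays and 2.19, 2.45 and 2.38 on the 0h arrays. Its KM minus KP was 5.62, with KP near background. The KM arrays stood far above all others, and the highest of the KP arrays was replicate 1. Without that array the gene left the group, because the KR mean was then too far above the KP mean. Another probe set of LOC_Os09g28430 was near background in every group, with means of 2.53 in KR, 2.50 in KM, 2.51 in KP and 2.51 in 0h.

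A second alpha-amylase, LOC_Os02g52700, read 2.58, 3.10 and 2.50 in KR, 7.01, 6.04 and 6.49 in KM, 2.45, 2.42 and 2.41 in KP and 2.45, 2.44 and 2.41 in 0h on its member probe set. Its KR arrays were back near background. Its other probe sets differed. On a second probe set the means were 5.52 in KR, 8.78 in KM, 2.90 in KP and 2.01 in 0h, and on the brightest 8.26 in KR, 11.39 in KM, 4.50 in KP and 3.38 in 0h. On both, KR lay well above KP, so the return of this gene to its KP level held on the dim probe set alone. Near-identical copies can share the signal of such probe sets.

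The related AMY1A, no member, is shown because it bears on the members of its family. It read 11.34, 12.23 and 11.05 in KR, 13.51, 13.29 and 13.28 in KM, 10.99, 3.49 and 2.54 in KP and 2.26, 2.22 and 2.58 in 0h. KP replicate 1 thus held a high amylase signal that the other KP arrays lacked. The cysteine proteinase EP3A, of germinating seeds and no member, read 3.31, 5.25 and 3.30 in KR, 7.41, 6.38 and 7.22 in KM, 3.32, 1.94 and 2.27 in KP and 2.29, 2.70 and 2.28 in 0h.

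The summed linear intensity of the seed-remnant markers that could be matched (6 of 8) was 1137 to 1249 in KR, 1132 to 1334 in KM, 869 to 954 in KP and 483 to 590 in 0h. AMY1A was not among the matched markers, so the sum leaves it out. Its log2 values, 13.28 to 13.51 in KM and 11.05 to 12.23 in KR, lay above those of every marker in the sum. Of the matched markers, GluA1, a glutelin, was near background on every array, and so was RAmy3E. GluA2, another glutelin, was not, at 6.74 to 7.18 over the KR, KM and KP arrays and 5.97 to 6.07 in 0h. GLB1, the brightest, read 9.95 to 10.08 in KR, 9.70 to 10.03 in KM, 9.49 to 9.65 in KP and 8.63 to 8.87 in 0h. The part of seed tissue in the amylase signals was not tested. The isocitrate lyase ICL, of the glyoxylate cycle that turns stored lipid into sugar, was also a member, with 5.19, 5.40 and 6.57 in KR, 7.66, 7.29 and 7.27 in KM, 6.53, 5.84 and 5.39 in KP and 5.71, 5.63 and 6.62 in 0h.

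**Figure D2:**
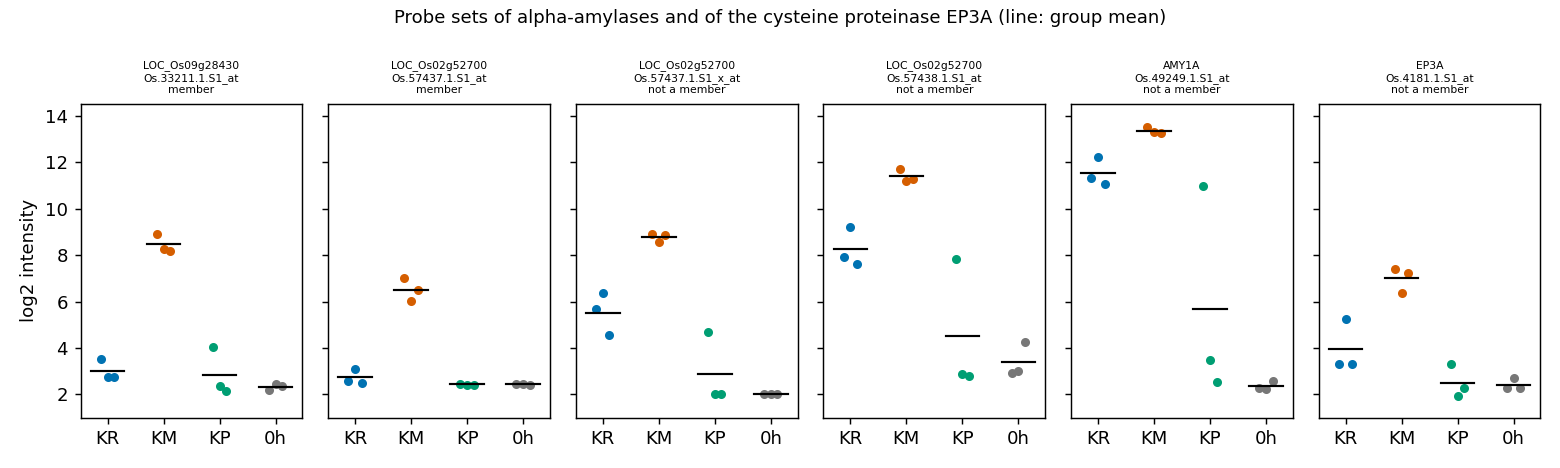
Log2 intensity of 5 probe sets of alpha-amylases and 1 of the cysteine proteinase EP3A on each array, by group, with lines at group means. In KR the 2 member probe sets average 2.73 and 3.00, while the other 2 probe sets of LOC_Os02g52700 and AMY1A average 5.52 to 11.54, and 1 KP array stands far above the other two on these.

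The peroxidase LOC_Os07g48050, of a secreted class that acts on cell walls and reactive oxygen, varied little within each group. It read 2.73, 2.92 and 2.99 in KR, 6.70, 6.50 and 6.80 in KM, 2.65, 2.64 and 2.64 in KP and 2.68, 2.69 and 2.64 in 0h. All groups but KM were near background, so the size of the difference is not well measured. A second peroxidase, LOC_Os03g13210, was bright in all groups, at means of 6.66 in KR, 7.42 in KM, 6.39 in KP and 5.86 in 0h.

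LOC_Os11g31530, annotated as a receptor kinase of the type that partners the brassinosteroid receptor, read 2.73, 2.89 and 3.18 in KR, 5.53, 6.85 and 6.66 in KM, 2.72, 2.71 and 2.71 in KP and 2.72, 2.62 and 2.61 in 0h. LOC_Os01g28450, an SCP-like extracellular protein of the kind that includes pathogenesis-related proteins, read 2.89, 2.88 and 2.65 in KR, 5.43, 6.50 and 6.44 in KM, 2.54, 2.52 and 2.56 in KP and 2.57, 2.52 and 2.51 in 0h. Both were off background in KM alone, where replicate 1 was the lowest of the 3. The phytosulfokine precursor LOC_Os06g42680, which encodes a growth-promoting peptide hormone, had means of 3.15 in KR, 6.27 in KM, 3.21 in KP and 2.99 in 0h. Means of the Dof zinc finger factor LOC_Os02g15350 were 2.95 in KR, 5.37 in KM, 2.75 in KP and 2.75 in 0h.

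LOC_Os04g57880, a DnaJ co-chaperone, and LOC_Os04g57890, an oligosaccharyl transferase, carry adjoining locus numbers and had nearly the same profile. The DnaJ gene read 6.39, 6.20 and 6.24 in KR, 9.12, 9.29 and 9.42 in KM, 6.38, 6.48 and 6.34 in KP and 2.37, 2.33 and 2.29 in 0h. The transferase gene read 6.08, 5.73 and 6.26 in KR, 9.13, 9.35 and 9.29 in KM, 6.60, 6.49 and 6.38 in KP and 2.29, 2.87 and 2.27 in 0h. Both were near background before transfer and clearly present in KP.

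The study designed PCR primers for these genes, and those of the peroxidase and of the adjoining pair are shown 5′ to 3′ because they mark the transcripts by sequence. The PCR values are not used here.
LOC_Os07g48050 forward: caggatgctcctccaaacaag
LOC_Os07g48050 reverse: ttgcacacggcctctatctg
LOC_Os04g57880 forward: gatcctcgacgccatcca
LOC_Os04g57880 reverse: tcgagagccgcgagatct
LOC_Os04g57890 forward: gcaaagggtgcagttgatcaat
LOC_Os04g57890 reverse: gaaagcacccagaagtaaagcaa

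Members annotated as heat shock proteins were the small HSP16.9A, the hsp20-type LOC_Os02g03570 and the DnaJ gene LOC_Os04g57880 described above. HSP16.9A read 5.44, 6.12 and 4.94 in KR, 7.68, 7.48 and 7.10 in KM, 5.75, 4.64 and 4.85 in KP and 6.49, 6.32 and 5.95 in 0h. Its KM arrays stood above the others, and its 0h arrays between KM and KP. Among the 43 heat shock factors and proteins with a gene name, 2 passed limma for KM above KP and 6 for KM below KP. Over the 17905 genes with 1 probe set each, 284 (1.59%) passed above and 574 (3.21%) below, while of all probe sets 0.954% passed above and 1.59% below.

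Genes that make indole and tryptophan, a branch that feeds auxin and indolic defence compounds, were among the members. Indole-3-glycerol phosphate synthase LOC_Os09g08130 had 2 member probe sets. The one with the larger difference read 5.13, 5.19 and 5.50 in KR, 8.75, 8.60 and 8.44 in KM, 5.78, 6.21 and 5.11 in KP and 3.26, 3.07 and 3.71 in 0h. Another probe set of this gene was near background, with means of 3.61 in KR, 3.38 in KM, 3.05 in KP and 3.27 in 0h. Indole-3-glycerol phosphate lyase LOC_Os07g08430 had means of 8.86 in KR, 10.05 in KM, 8.99 in KP and 8.33 in 0h. ASA2, an anthranilate synthase subunit at the entry of the tryptophan branch, had means of 7.77 in KR, 8.80 in KM, 7.70 in KP and 7.39 in 0h.

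Diterpenoid phytoalexins are antimicrobial compounds of rice, and 3 genes of the phytocassane cluster on chromosome 2 were members. CYP71Z7, a cytochrome P450 of phytocassane synthesis, read 9.20, 8.40 and 7.35 in KR, 10.28, 10.52 and 10.71 in KM, 8.36, 8.87 and 7.97 in KP and 6.53, 6.71 and 7.37 in 0h. CPS2, the ent-copalyl diphosphate synthase of this branch, read 7.53, 6.75 and 5.74 in KR, 8.95, 8.98 and 8.75 in KM, 6.92, 7.96 and 6.49 in KP and 6.38, 6.45 and 7.84 in 0h. DTC1, also known as KSL7 and the cassadiene synthase, read 7.42, 7.16 and 7.18 in KR, 8.97, 9.09 and 8.85 in KM, 7.48, 7.94 and 7.51 in KP and 7.10, 6.96 and 7.59 in 0h. The KM arrays were tight, while CYP71Z7 and CPS2 spread widely over the KR and KP arrays. CYP71Z7 and CPS2 are next to each other in the RefSeq gene order, with 2 genes between CYP71Z7 and DTC1.

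Of the 15 diterpenoid phytoalexin genes matched by name, 3 passed limma for KM above KP, none for KM below KP and 13 for KR below KM. The 3 were CYP71Z7, DTC1 and CYP76M6, no member with a KM mean of 3.76, whereas the member CPS2 did not pass. Of the 17905 genes 1.59% passed for KM above KP and 3.91% for KR below KM. The median KM minus KP of the 15 was 0.92, against 0.01 over all 17905 genes. The momilactone cluster genes matched by name were not members. KSL4, a diterpene synthase of that cluster, had means of 2.90 in KR, 6.67 in KM, 5.65 in KP and 4.79 in 0h. CYP99A2, a cytochrome P450 of the cluster, had 3.65 in KR, 7.87 in KM, 6.88 in KP and 5.62 in 0h. For both, KR lay far below KP, outside the limit that the members met. Other phytoalexin genes that were not members did the same. CYP71Z6 had 5.25 in KR and 7.02 in KP, CYP76M8 4.51 and 5.70, and CYP76M5 2.85 and 4.04. In CYP76M7 and KSL10, near background in all groups, KR was not below KP.

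Flavonoid genes were members as well. The flavonol synthase-type LOC_Os10g40934 had 2 member probe sets, and the one with the larger difference read 7.73, 7.50 and 7.16 in KR, 8.53, 9.10 and 8.85 in KM, 6.98, 7.38 and 6.86 in KP and 2.34, 2.64 and 2.92 in 0h. LOC_Os10g40960, a further 2-oxoglutarate-dependent oxygenase that lies 1 gene away, read 7.53, 7.36 and 7.30 in KR, 8.36, 8.10 and 8.42 in KM, 7.23, 6.88 and 7.12 in KP and 4.33, 4.84 and 4.66 in 0h. The dihydroflavonol reductase LOC_Os07g41060 had means of 4.44 in KR, 5.90 in KM, 4.24 in KP and 2.54 in 0h. All of these were lowest in 0h.

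**Figure D3:**
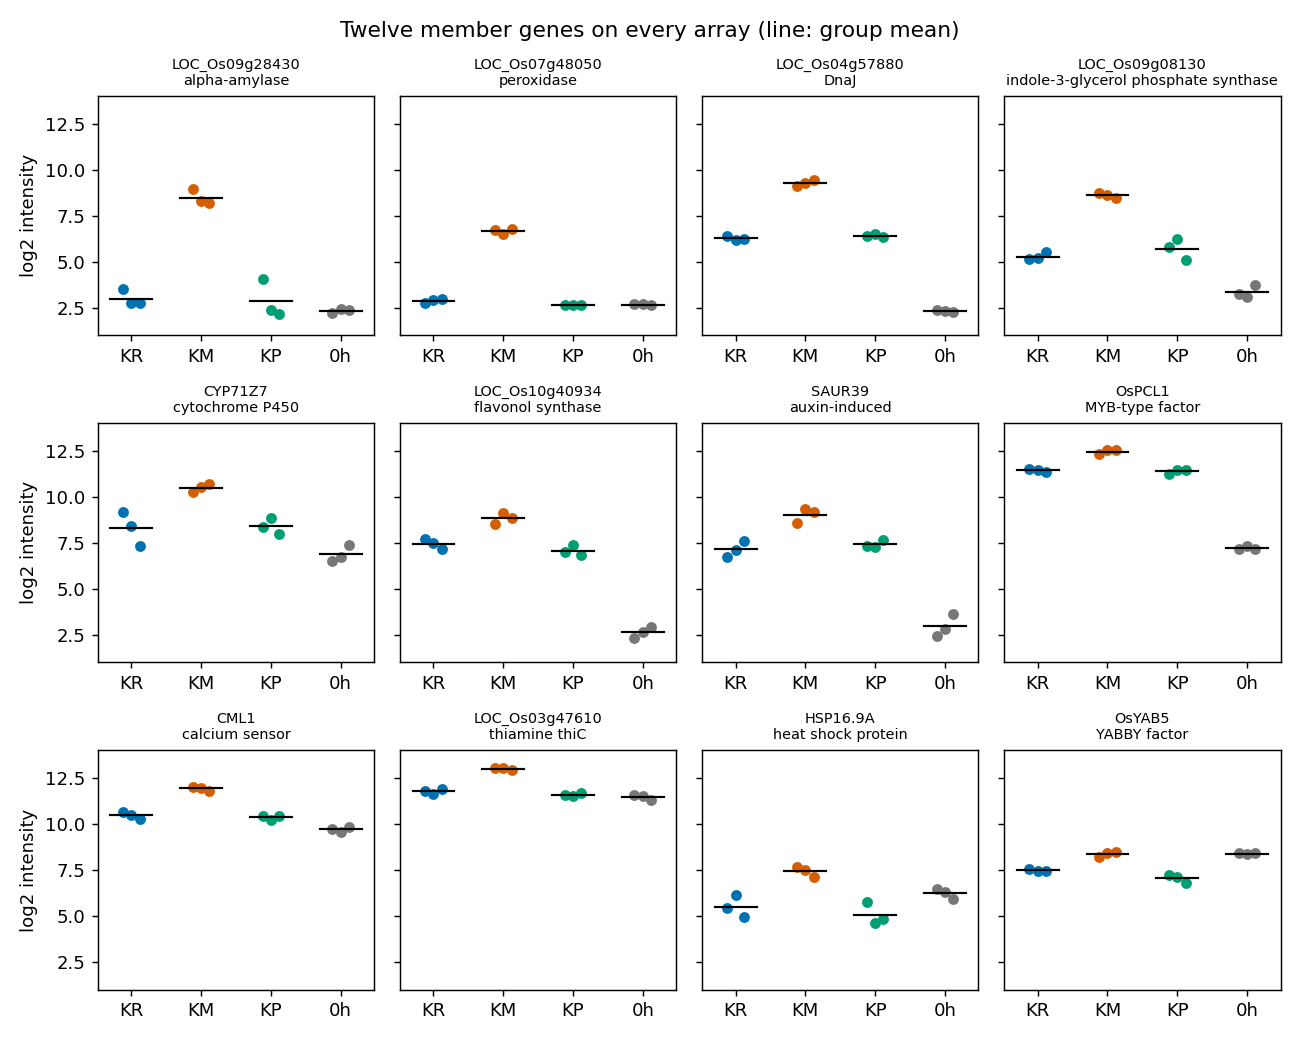
Log2 intensity of 12 member genes on each array, by group, with lines at group means. In every panel the KM arrays stand above KR and KP, while 0h lies near background for the DnaJ gene (mean 2.33), far below KP for OsPCL1 (11.39 in KP and 7.21 in 0h) and level with KM for OsYAB5 (8.39, against 8.36 in KM).

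Among the signalling members, CML1, a calmodulin-like calcium sensor, was one of the brightest, at 10.67, 10.51 and 10.27 in KR, 11.99, 11.98 and 11.81 in KM, 10.42, 10.24 and 10.41 in KP and 9.75, 9.54 and 9.81 in 0h. LOC_Os09g28510, an EF hand protein, had means of 10.80 in KR, 11.43 in KM, 10.42 in KP and 10.84 in 0h. Of the 67 named calcium sensors and their kinases, CML1 was the only one to pass for KM above KP, and 10 passed for KM below KP, with 1.59% of the 17905 genes passing above and 3.21% below. Hormone genes among the members were SAUR39, an auxin-induced gene, GH3.2, which joins auxin to amino acids, and OPR7, of jasmonate synthesis. Of the 44 auxin response genes matched by name, 2 passed for KM above KP and none for KM below KP. Of the 35 jasmonate genes, 2 passed above and 5 below. OPR7, with a KM mean of 5.05, left the group without KM replicate 2 or KP replicate 1. Potassium transporters and channels, 24 by name, held no member. Of these 24, 1 passed for KM below KP and none above, near the background shares of 3.21% and 1.59%.

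Modifier proteins of the ubiquitin type formed a small group. NEDD8 (RUB1), which is attached to cullins, read 11.51, 11.42 and 11.36 in KR, 12.50, 12.28 and 12.30 in KM, 11.22, 10.97 and 11.07 in KP and 9.55, 9.72 and 9.62 in 0h. LOC_Os09g31031, of the ubiquitin family, read 4.64, 3.57 and 5.26 in KR, 7.27, 7.63 and 7.19 in KM, 4.98, 4.51 and 4.94 in KP and 3.70, 4.04 and 4.81 in 0h. Ubiquitin-fold modifier LOC_Os01g73140 had means of 10.42 in KR, 11.10 in KM, 10.02 in KP and 8.83 in 0h. With the ubiquitin carboxyl-terminal hydrolase LOC_Os03g44430 they made up 4 of the 7 probe sets under the cell death heading of the study's table. Of those 7, 5 were higher in KM than in KP. The table, itself chosen on these arrays, held 59 members in all under its headings.

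Bright members of metabolism included LOC_Os03g47610, the thiC enzyme of thiamine synthesis. It read 11.80, 11.63 and 11.92 in KR, 13.03, 13.02 and 12.95 in KM, 11.59, 11.53 and 11.67 in KP and 11.59, 11.50 and 11.29 in 0h. Another probe set of this gene had means of 9.07 in KR, 8.52 in KM, 7.92 in KP and 5.01 in 0h, with KR the highest. CSase, the cysteine synthase that completes cysteine assembly, had means of 10.72 in KR, 11.39 in KM, 10.39 in KP and 9.46 in 0h. BURP2, of a plant-specific family of secreted proteins, was the brightest of the named members, at 12.92, 13.11 and 12.82 in KR, 13.86, 13.59 and 13.55 in KM, 12.93, 12.27 and 12.51 in KP and 11.64, 11.64 and 11.81 in 0h. The flavin-type amine oxidase LOC_Os04g57560 had means of 11.37 in KR, 12.25 in KM, 11.16 in KP and 10.32 in 0h.

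Genes of nucleotide metabolism and further oxidoreductases had smaller differences. AMP deaminase LOC_Os07g46630 had means of 4.79 in KR, 6.01 in KM, 4.74 in KP and 4.70 in 0h. LOC_Os01g58690, of the endonuclease, exonuclease and phosphatase family, had 6.86 in KR, 7.84 in KM, 6.54 in KP and 5.88 in 0h. The oxidoreductase LOC_Os02g53510 had 6.96 in KR, 7.80 in KM, 6.48 in KP and 5.79 in 0h.

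Other probe sets existed for 38 of the members' genes, 51 in all. Of the 33 with a KM mean of at least 5, 30 lay higher in KM than in KP and 10 of these by at least 1, the limit that members had to meet. GCRMA values of different probe sets are not on 1 scale.

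The 0h arrays divided the members. Against 0h, KP was called higher for 57 of the 210 members, with 5.87% of all probe sets called, and lower for 25, with 5.71% called. KM was called higher than 0h for 152 members, with 6.19% of all probe sets called, and lower for 2, with 5.94% called. Since members had to reach a KM mean of 5, the fairer background is the 18137 probe sets that do: there KP was called higher for 15.9% and lower for 12.2%, and KM higher for 17.2% and lower for 12.1%. The corresponding shares of the members were 27.1% and 11.9% for KP and 72.4% and 0.952% for KM. The KM share is raised by the rule, which asked for high KM arrays, and KP arrays also took part in it.

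Another 107 probe sets were raised in KM and still at least 1 above KP in KR. Against 0h, KP was called higher for 34.6% of these and lower for 13.1%, and KM higher for 70.1% and lower for 1.87%. The difference between the 2 sets was not tested.

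**Figure D4:**
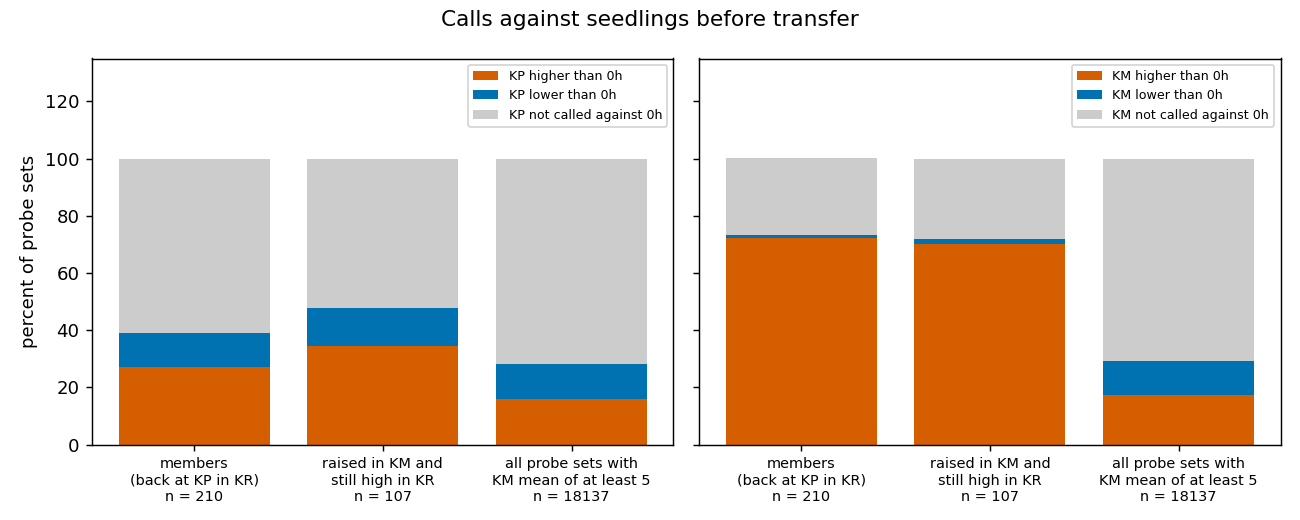
Percent of probe sets called higher, lower or not called (limma, adjusted p under 0.05 and at least 2-fold) for KP against 0h on the left and KM against 0h on the right. KP is called higher for 27.1% of the members, 34.6% of the 107 probe sets still high in KR and 15.9% of all 18137 probe sets with a KM mean of at least 5. These shares were not tested against each other.

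For 57 members KP was called above 0h, and KM, which the rule places above KP, was called as well. Both calls were made for 27.1% of the members and 13.0% of the 18137 probe sets with a KM mean of at least 5. The rule, which placed KM above KP, shapes this share and the class shares below. The median of the 57 was 7.06 in KR, 8.39 in KM, 6.97 in KP and 4.47 in 0h, and 17 of them were near background in 0h. On 55 of the 57 all 0h arrays lay below all KP and KR arrays.

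OsPCL1, a MYB-type factor whose Arabidopsis counterpart LUX belongs to the circadian clock, read 11.49, 11.45 and 11.34 in KR, 12.31, 12.55 and 12.54 in KM, 11.23, 11.45 and 11.48 in KP and 7.14, 7.31 and 7.16 in 0h. It was higher in KP than in 0h by 4.18 ± 0.09 (SE, n = 3 each) with an adjusted p of 1.92e-08 by limma. SAUR39 read 6.72, 7.12 and 7.60 in KR, 8.56, 9.35 and 9.17 in KM, 7.34, 7.28 and 7.68 in KP and 2.43, 2.83 and 3.62 in 0h, a KP level 4.47 ± 0.34 above 0h (limma adjusted p 9.23e-06). The chitinase Cht2, of an enzyme class that attacks fungal walls, read 9.65, 9.58 and 9.29 in KR, 10.98, 11.59 and 11.54 in KM, 10.12, 10.06 and 9.65 in KP and 5.21, 4.77 and 5.81 in 0h. This probe set of Cht2 left the group without KR replicate 1 or KP replicate 3. A brighter probe set of Cht2 was no member, with means of 10.84 in KR, 12.22 in KM, 11.43 in KP and 8.86 in 0h. Its KM minus KP was 0.78. For OsPCL1, SAUR39 and Cht2 KP against 0h was a larger difference than KM against KP.

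The adjoining genes LOC_Os04g57880 and LOC_Os04g57890 belonged here, at 4.07 ± 0.08 and 4.01 ± 0.18 for KP minus 0h (limma adjusted p 1.25e-08 and 5.26e-07). So did flavonol synthase LOC_Os10g40934 at 4.44 (adjusted p 8.53e-07), the oxygenase LOC_Os10g40960 at 2.47 ± 0.15 (adjusted p 2.13e-06), the reductase LOC_Os07g41060 at 1.70 ± 0.36 (adjusted p 0.00552), NEDD8 at 1.46 ± 0.08 (adjusted p 1.51e-06) and the synthase LOC_Os09g08130 at 2.35 (adjusted p 0.000117). CYP71Z7 passed at 1.54 ± 0.44 (adjusted p 0.0288) and lost the call without KP replicate 1 or 2 or without 0h replicate 1 or 2, with adjusted p between 0.0700 and 0.106. It was not called by the methods' t-test either (adjusted p 0.0662). On the other member probe set of LOC_Os09g08130 KP was not called above 0h (0.80 ± 0.37, limma adjusted p 0.187).

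In 94 members KM alone was called above 0h and KP was not called. That was 44.8% of the members, against 4.16% of the 18137 probe sets with a KM mean of at least 5. The median of the 94 was 5.51 in KR, 7.15 in KM, 5.56 in KP and 5.11 in 0h. The alpha-amylases, the peroxidase LOC_Os07g48050, the receptor kinase LOC_Os11g31530 and the Dof factor were of this kind. The peroxidase averaged 6.67 ± 0.15 in KM and 2.67 ± 0.03 in 0h (SD, n = 3 each), and KP minus 0h was -0.03 ± 0.08 (SE, limma adjusted p 0.93). LOC_Os09g28430 was higher in KM than in 0h by 6.12 ± 0.47. CML1 was 2.23 ± 0.11 higher in KM than in 0h, and LOC_Os03g47610 1.54 ± 0.09. These differences are given without a test, since high KM arrays chose the members. CPS2 was 2.00 ± 0.56 higher in KM than in 0h, and its place in this class was not firm. Its call was lost with any 1 of the 3 KM arrays, or 0h replicate 1 or 2, left out, and with the methods' t-test.

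For 22 members KP was called below 0h while KM was not called against it. That was 10.5% of the members, against 3.9% of the 18137 probe sets with a KM mean of at least 5. The median of the 22 was 6.05 in KR, 7.14 in KM, 5.80 in KP and 7.36 in 0h. OsYAB5, of the YABBY family that patterns leaves, read 7.53, 7.44 and 7.47 in KR, 8.20, 8.41 and 8.47 in KM, 7.23, 7.10 and 6.78 in KP and 8.41, 8.36 and 8.41 in 0h. KP lay below 0h (KP minus 0h -1.36 ± 0.11, limma adjusted p 1.22e-05), and KM minus 0h was -0.03 ± 0.11. MADS58, a MADS-box factor of flower development, read 5.57, 5.27 and 4.58 in KR, 6.05, 6.30 and 6.32 in KM, 5.40, 4.35 and 4.50 in KP and 5.99, 5.94 and 6.77 in 0h. KM overlapped 0h for both genes.

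OsSGS3, which acts in RNA silencing, the peroxiredoxin PRXIIE-2 and the ubiquitin hydrolase LOC_Os03g44430 behaved likewise on their member probe sets. KP minus 0h was -1.14 ± 0.12 for OsSGS3, -1.36 ± 0.22 for PRXIIE-2 and -1.62 ± 0.12 for LOC_Os03g44430 (limma adjusted p 7.15e-05, 0.00102 and 6.64e-06). A second probe set of OsSGS3 went the other way, with means of 5.65 in KR, 6.89 in KM, 6.11 in KP and 5.55 in 0h. OsSGS3, PRXIIE-2 and LOC_Os03g44430 were named for their level in 0h after their values had been seen. So were OsYAB5, MADS58, SAUR39, Cht2 and SSRP1-B.

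The remaining members were few or not called. SSRP1-B, a chromatin protein of the FACT type, was called below 0h in both groups. Its KP minus 0h was -2.45 ± 0.21 (limma adjusted p 2.17e-05) and its KM minus 0h -1.03 ± 0.21. The other such member was 1 unnamed probe set. HSP16.9A alone was called on both sides, with a KP minus 0h of -1.17 ± 0.36 (limma adjusted p 0.0389) and a KM minus 0h of 1.17 ± 0.36. Each of its calls was lost without 0h replicate 1 or 2, KR replicate 1, KM replicate 1 or 2 or KP replicate 3, and 1 of them without KP replicate 2 or 0h replicate 3. Neither comparison was called for 34 members (16.2%, against 63.9% of the 18137 probe sets with a KM mean of at least 5). The medians of the 34 were 5.90 in KR, 7.20 in KM, 6.00 in KP and 6.28 in 0h.

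**Figure D5:**
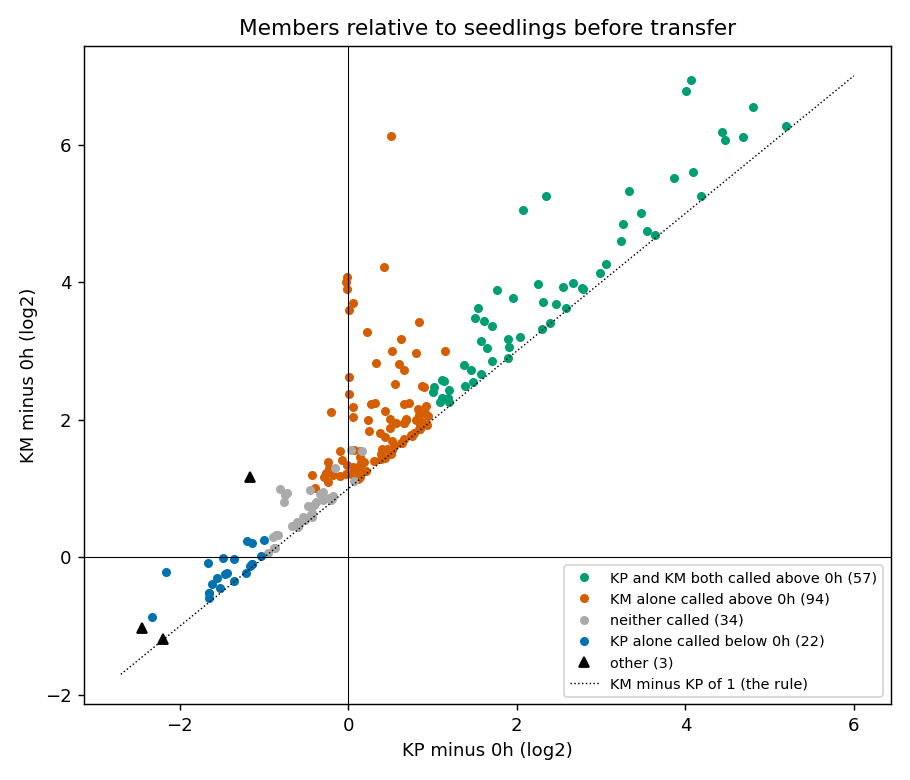
KM minus 0h against KP minus 0h on the log2 scale for the 210 members, each point 1 probe set, coloured by its calls against 0h, with a dotted line where KM minus KP is 1. The points run along the line from KP minus 0h of -2.45 to 5.19, since the rule places all of them above it, with 57 members called up in both and 22 called down in KP alone.

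The thresholds of the rule had members close to them. Among annotated probe sets, nearest inside the KM minus KP limit were CSase (1.008), LOC_Os09g28510 (1.009) and PRXIIE-2 (1.015), and nearest outside were OsNrx1-2 (0.995), a second probe set of ta4 (0.994) and a probe set named aquaporin (0.976). At the KR limit, an absolute KR minus KP of 0.490 kept a probe set of LOC_Os09g08130, while 0.518 left out LOC_Os10g05020. At the KM minimum, OPR7 (5.05) was inside and LOC_Os09g27510, at 4.999, outside. Missing a single condition were 2071 probe sets at the KM minus KP limit, 208 at the KR limit, 67 at the KM minimum and 10 at the separation of the arrays.

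With each KR, KM or KP array left out in turn, 96 of the 210 members met the rule in all 9 settings. KP replicate 1 mattered most, with 158 kept without it. Of the 32 probe sets chosen for naming by rule, 16 were kept in all 9, among them those of LOC_Os02g52700, LOC_Os07g48050, LOC_Os11g31530, LOC_Os04g57880, CML1, NEDD8 and DTC1. The other 16 were lost in at least 1, among them those of LOC_Os09g28430, LOC_Os04g57890, CYP71Z7, CPS2, OsPCL1, BURP2 and HSP16.9A.

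Tissue markers moved between the same groups. The leaf markers that could be matched (2 of 8) summed to linear intensities of 21090 to 22401 in KR, 11417 to 11590 in KM, 19563 to 21220 in KP and 19122 to 19285 in 0h. One of them, CAO, the enzyme that makes chlorophyll b, read 10.28, 10.56 and 10.49 in KR, 7.29, 7.31 and 7.20 in KM, 10.26, 10.30 and 10.35 in KP and 10.65, 10.71 and 10.51 in 0h. The root markers (5 of 8) summed to 4874 to 5315 in KR, 2448 to 3041 in KM, 2838 to 5294 in KP and 391 to 468 in 0h, with NRT2.3 and IRT1 near background on every array. Leaf and root markers were thus not higher in KM than in KR or KP, and the root markers were lowest in 0h. Their part in the members' levels was not tested.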

How the data were processed

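The deposited values are linear GCRMA intensities of 57381 probe sets, normalized by the authors in ArrayAssist from 12 arrays; the submitters' processing notes name GCOS 1.2.1. Log2 was taken with a floor of 1, 123 controls were left out, and no further normalization was applied. Array number (3 per group) limits the precision, and raw scans are not used here. KP and KM were set against 0h by limma 3.58.1 in R 4.3.3, with 1 mean per group over all 12 arrays and Benjamini-Hochberg adjustment over 57258 probe sets. A call needs an adjusted p under 0.05 and at least 2-fold. The test was checked on simulated data.

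The members and lists were chosen with earlier results of these data known. Named genes were the annotated members with the 12 largest KM minus KP, the 8 brightest in KM, up to 3 of any family with 2 or more, those the study's results text or PCR named, and those nearest each threshold; others are named as examples of a group after their values were seen. Gene names come from the array's annotation and RefSeq, loci from the study's supplementary table. Where both gave a chromosome they matched for 50 of 50 members. Families were matched by symbol (31 lists), with 1 probe set per gene, the brightest over the arrays, and 2 lists matched none. Counts of lists without a member are not given, except potassium transporters. Nor are those of the lists that hold HOX15 (homeobox), CRK6 (receptor kinases), Cht2 (chitinases) and CYP71Z7 (cytochromes P450). Promoter motifs were planned and not analysed here.

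Alternatives were other normalizations, filters, thresholds and tests, a replicate block, and each array left out.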

Additional observations from a re-analysis of the deposited data

How the results depend on the processing

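The number of members was 107 with KR within 0.25 of KP, 339 with KR within 1 of KP and 64 with a KM minus KP of at least 1.5, against 210, since these settings move the rule itself. Other normalizations, no minimum or a KM mean of at least 6 gave 166 to 277. Leaving out 1 array gave 194 to 240 members. Leaving out 1 array moved the members called higher in KP than in 0h between 54 and 61 (57 with all), lower between 22 and 25 (25), higher in KM than in 0h between 146 and 154 (152) and lower between 1 and 2 (2). The 1 stood without KM replicate 1 and without each of the 0h arrays. With the methods' t-test 14 members were called lower in KP than in 0h and 1 lower in KM; the cause was not tested.

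Replicate numbers do not pair the samples: deviations of same-numbered arrays from their group means correlated at -0.113 to 0.162, against -0.2 to 0.193 for other arrays. With the replicate number as a block, 56 and 24 members were called higher and lower in KP than in 0h, and 149 and 2 in KM. The calls of CYP71Z7 in KP (limma adjusted p 0.0603) and CPS2 in KM were not made with the block. Of the named genes' 64 differences from 0h none reversed under any alternative. Across 1280 repeats 1243 kept their side of the threshold, 31 lost a call and 6 gained one. Near background GCRMA compresses differences, and no detection calls were used.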
